A study of Mus musculus with 9 samples.

Results

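The 10 genes described here, Robo4, Pecam1, Cdh5, Kdr, Tie1, Tek, Flt1, Esam, Cldn5 and Emcn, are markers of vascular endothelium, the cell layer that lines blood vessels. They were chosen as every probe set whose platform annotation names 1 of these symbols and no other gene, which gave 14 of the 45101 probe sets on the mouse array. Of the 45101 probe sets, 64 were array controls and the other 45037 entered every fit. Flt1 was read by 4 of the 14 probe sets, Cdh5 by 2 and each of the other 8 genes by 1.

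The tissue was terminal colon dissected from mouse embryos at embryonic day 14 in the sample labels and 14.5 in the series text, with 3 arrays in each of 3 groups. The wild-type group had arrays 1B, 1C and 1D. The Ednrb null group (Ednrb -/-, homozygous for a lacZ allele, lacZ/lacZ) had arrays 29, 37 and 41, and carries the mutation in all its cells. The Ednrb NCC null group (Ednrb-FLEX(NCC-/-)) had arrays 2, 5 and 6, and is labelled as mutant in neural crest cells (NCC) only, the population that gives rise to the enteric nervous system. The labels give no treatment for any group, and the sources used here name neither the strain nor the Cre driver of the NCC null. Nothing says whether the 3 arrays of a group came from separate embryos or from pools, so p-values measure the spread between these arrays, which may be technical. Each level is a log2 intensity, so a difference of 1 is a doubling. Levels of different probe sets are not read as amounts relative to each other. Where intensities are summed over a list, or a gene is set against others, the result is compared between arrays and groups only. Bright probe sets weigh most in such sums.

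Endothelial cells respond to vascular endothelial growth factors (VEGFs) through the receptors Kdr and Flt1. They respond to angiopoietins through Tek, with Tie1 as its partner. Cdh5, Pecam1, Esam and Cldn5 hold the cells together at their junctions. Robo4 is a receptor found mainly on endothelium that stabilises vessels and limits their permeability, and Emcn is a sialomucin of the endothelial surface. In the fetal gut, vessels grow into the wall while neural crest cells colonise it, and endothelin receptor B is known from both lineages.

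Ednrb itself was lower in all 3 Ednrb null arrays. Its brightest probe set (1437347_at) lay between 8.77 and 9.40 there, between 10.95 and 11.08 in the wild type and between 11.04 and 11.32 in the NCC null, and the other 2 Ednrb probe sets were also lower in the Ednrb null only. The NCC null arrays therefore show no fall in Ednrb RNA for the whole tissue. Median intensity per array ran from 111.26 to 115.19. The log2 difference between the 3′ and 5′ control probe sets of Actb, a measure of RNA integrity and labelling, was 1.18 ± 0.13 in the wild type, 0.87 ± 0.06 in the Ednrb null and 1.21 ± 0.18 in the NCC null (SD, n = 3 each).

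As a mean over the 9 arrays, 12 of the 14 endothelial probe sets lay above 6.14, the log2 level below which 40% of all probe sets lie. The 2 below it were 1 probe set each of Cdh5 (1422047_at) and Flt1 (1454037_a_at), and a further Flt1 probe set, 1440926_at, was above it on average but at 6.10 in the Ednrb null. Against the wild type, no endothelial probe set passed the limma test (Benjamini-Hochberg adjusted p under 0.05 over all 45037 probe sets) in either mutant. The one call was for Robo4, which was 1.51-fold higher in the Ednrb null than in the NCC null.

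Between the Ednrb null and the wild type, 0 of 14 probe sets were called by limma, where 5.03% of all probe sets were called (2.51% higher, 2.52% lower). At an unadjusted p under 0.05, 3 of the 14 passed, where 17.3% of all probe sets did. The differences ran from -0.44 to 0.36, 7 above and 7 below 0, with a median of 0.018 beside 0.034 over all probe sets. Groups did not overlap for Robo4 and Pecam1, both higher in the Ednrb null, nor for Cdh5 (1433956_at) and Flt1 (1419300_at), both lower. These are 4 of 14, where 20.7% of all probe sets had groups without overlap.

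Between the NCC null and the wild type, 0 of 14 were again called by limma, where 3.58% of all probe sets were called (2.06% higher, 1.51% lower), and 4 passed at an unadjusted p under 0.05, where 17.0% of all did. Here 10 of the 14 differences were below 0, from -0.46 to 0.16, with a median of -0.17 beside 0.0076 over all probe sets. Only Kdr and Flt1 (1419300_at) were lower without overlap, 2 of 14 against 19.3% of all probe sets.

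Between the mutants, 11 of 14 probe sets had a higher mean in the Ednrb null and 3 in the NCC null. The median difference was 0.19, beside 0.024 over all probe sets. Limma called 1 of the 14, Robo4, as higher in the Ednrb null, where 1.84% of all probe sets were called in that direction and 4.41% in either. An unadjusted p under 0.05 was reached by 3, where 17.3% of all probe sets reached it. Robo4, Pecam1, Kdr, Tie1, Flt1 (1451756_at) and Esam were higher in every Ednrb null array than in any NCC null array, 6 of 14, where 21.3% of all probe sets had groups without overlap in either direction. Some margins were narrow. The lowest Ednrb null and highest NCC null arrays were at 8.563 and 8.557 for Tie1, 7.837 and 7.832 for Flt1, and 8.55 and 8.52 for Pecam1. The 95% intervals of the 14 differences lay within -0.74 to 0.60 for the Ednrb null against the wild type, within -0.76 to 0.44 for the NCC null against the wild type, and within -0.51 to 0.85 between the mutants.

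**Figure D1:**
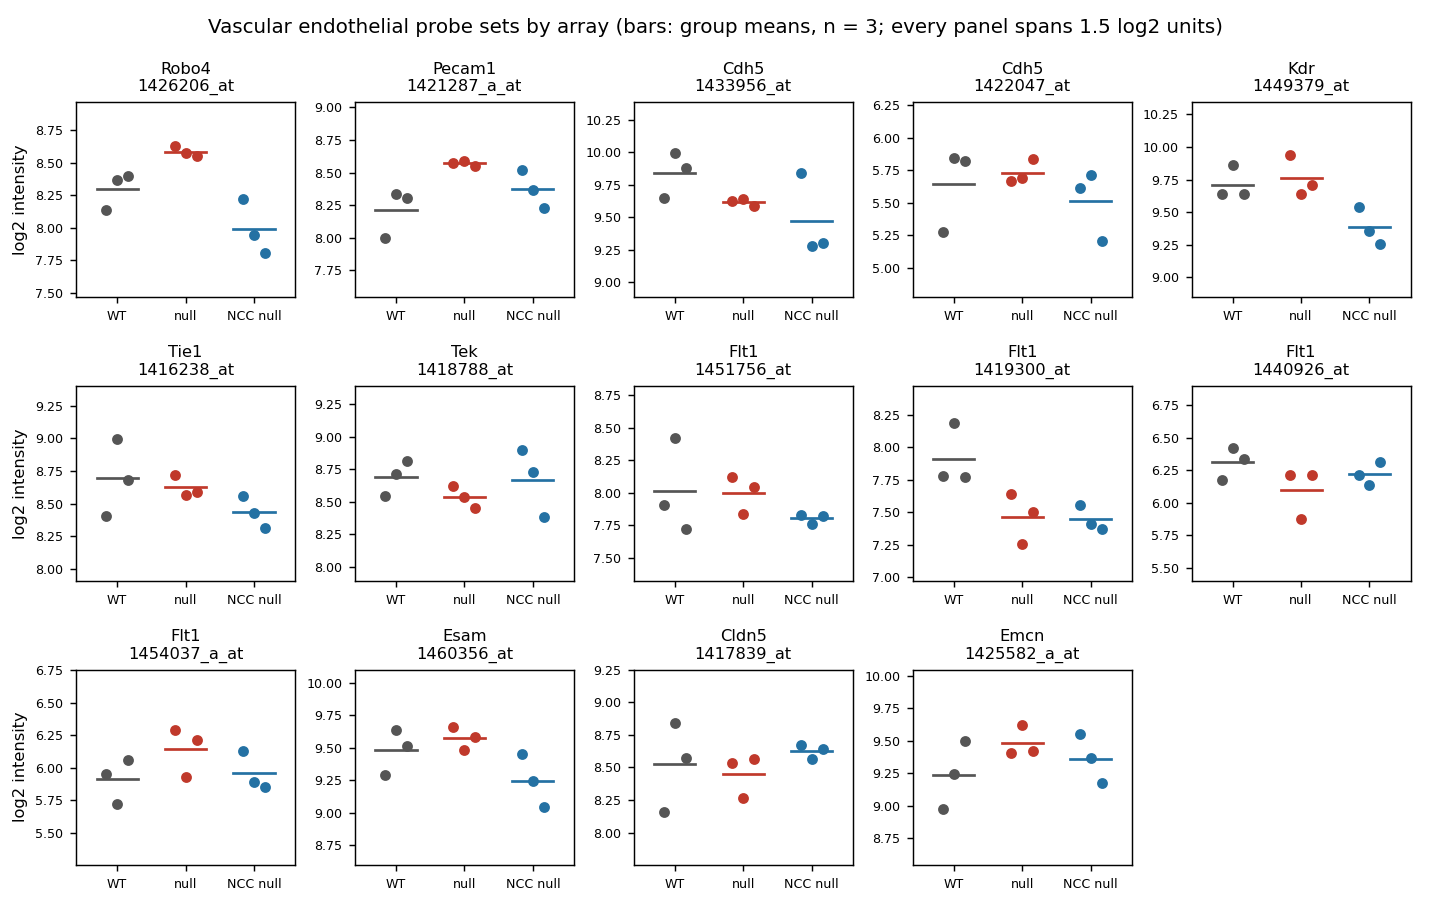
Log2 intensity (vertical axis, 1.5 log2 units in every panel) of each of the 14 endothelial probe sets in every array, by group. Points are arrays and bars are group means (n = 3). Robo4 separates the mutants, with 8.55 to 8.63 in the Ednrb null and 7.81 to 8.22 in the NCC null. Pecam1, Kdr, Tie1, Flt1 (1451756_at) and Esam also separate them, some by narrow margins. In the other panels the mutants overlap or share a value.

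**Figure D2:**
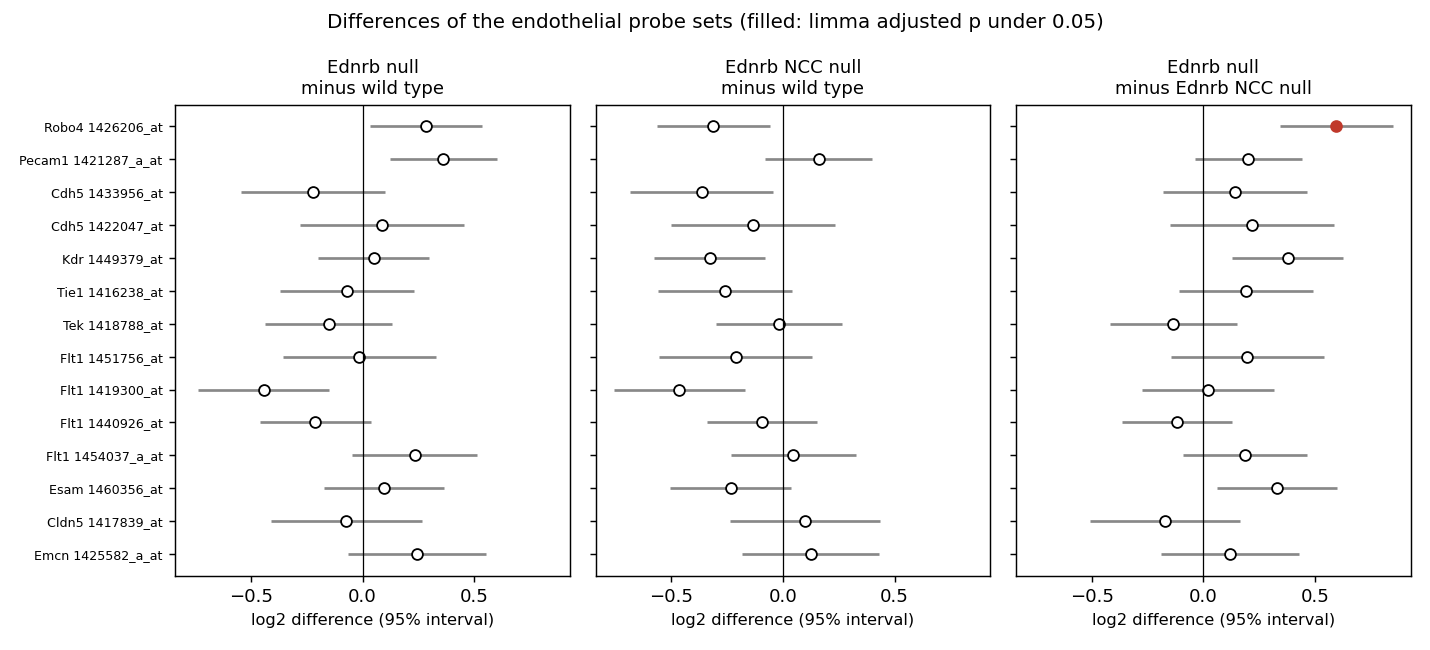
Log2 difference (horizontal axis) of each endothelial probe set in the 3 comparisons, with its 95% interval from limma. The only filled point, an adjusted p under 0.05, is Robo4 in the comparison of the mutants, at 0.60. Intervals of most probe sets cross 0.

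Robo4 (1426206_at) had log2 intensities of 8.14, 8.37 and 8.39 in wild-type arrays 1B, 1C and 1D. They were 8.63, 8.58 and 8.55 in Ednrb null arrays 29, 37 and 41, and 8.22, 7.94 and 7.81 in NCC null arrays 2, 5 and 6. All 3 Ednrb null arrays lay above the other 6, while the NCC null and the wild type overlapped. Group means were 8.58 ± 0.04 in the Ednrb null, 8.30 ± 0.14 in the wild type and 7.99 ± 0.21 in the NCC null (SD, n = 3 each), so the wild type lay between the mutants.

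The Ednrb null exceeded the NCC null by 0.60 (SE 0.11, 95% interval 0.34 to 0.85), a 1.51-fold difference (interval 1.27 to 1.80) with a limma adjusted p of 0.0154. Neither mutant differed from the wild type past the threshold: 0.28 for the Ednrb null (limma adjusted p = 0.223) and -0.31 for the NCC null (limma adjusted p = 0.185). The call between the mutants was lost without Ednrb null array 29 (0.57, limma adjusted p = 0.0716), NCC null array 5 (0.57, limma adjusted p = 0.0640) or NCC null array 6 (0.50, limma adjusted p = 0.0680), and once the Actb ratio was entered as a covariate (0.66, limma adjusted p = 0.203). It held in 14 of 18 alternatives, and the difference ran from 0.50 to 0.71 over all 18. Among these, the looser threshold of 0.10 reads the main fit again, so no call could be lost there. Its outcome is therefore no check of a call, in this count of alternatives or in those below. The Actb ratio was 0.80 to 0.90 in the Ednrb null, 1.08 to 1.32 in the wild type and 1.03 to 1.40 in the NCC null. Ratio and genotype therefore cannot be told apart where a call of the Ednrb null is lost with this covariate, here or below.

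As these are whole-tissue samples, fewer endothelial cells and less RNA per endothelial cell cannot be told apart. Robo4 was therefore also set against the other endothelial genes of the same array, a description chosen after its values were seen. Its level minus the mean of the other 9 genes (each at its brightest probe set) was -0.40 to -0.33 in the Ednrb null, -0.75 to -0.56 in the wild type and -0.88 to -0.77 in the NCC null. On this scale no 2 groups overlapped, and the gap between the mutants was 0.46. Kdr and Esam, higher in the Ednrb null, and Tek and Cldn5, lower there, also separated the mutants on it. So did 28.8% of the other genes on the array, set against the mean of all 10. Robo4 lies on chromosome 9 near Esam, with 2 protein-coding genes between them in the RefSeq annotation (GRCm38.p6).

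A 250-base window before an annotated start of Robo4 is printed with those of Kdr and Flt1, the VEGF receptors whose levels are described next. Ets-family factors, among them Erg and Fli1, drive many endothelial genes and bind sites with the core GGAA. Each line gives 250 bases on the gene's own strand, from RefSeq on GRCm38.p6, with GGAA and its reverse complement TTCC in capitals. The start that a window precedes is not always the first base of the RefSeq gene. The windows are chr9:37401722-37401971 (+ strand) for Robo4, chr5:75978456-75978705 (- strand) for Kdr and chr5:147726012-147726261 (- strand) for Flt1. Those of Kdr and Flt1 lie inside the RefSeq genes, whose first bases on the - strand are 75979072 and 147726438. The Robo4 window runs past the first base of its gene, 37401902.
Robo4: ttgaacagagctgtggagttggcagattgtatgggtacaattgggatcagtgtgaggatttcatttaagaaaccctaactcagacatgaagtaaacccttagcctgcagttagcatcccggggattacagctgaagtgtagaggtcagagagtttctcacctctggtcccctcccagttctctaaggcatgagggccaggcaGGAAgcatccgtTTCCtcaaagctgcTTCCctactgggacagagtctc
Kdr: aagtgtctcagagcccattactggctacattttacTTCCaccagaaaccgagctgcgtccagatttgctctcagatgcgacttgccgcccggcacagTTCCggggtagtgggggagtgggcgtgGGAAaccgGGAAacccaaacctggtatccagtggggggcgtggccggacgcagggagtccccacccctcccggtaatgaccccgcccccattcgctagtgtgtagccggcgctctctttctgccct
Flt1: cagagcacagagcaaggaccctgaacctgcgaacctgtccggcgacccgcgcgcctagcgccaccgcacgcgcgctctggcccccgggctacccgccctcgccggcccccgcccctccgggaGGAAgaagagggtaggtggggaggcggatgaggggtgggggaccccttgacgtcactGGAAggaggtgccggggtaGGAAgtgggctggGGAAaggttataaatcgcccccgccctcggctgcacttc
RefSeq windows were found for 7 of the 10 genes: Robo4, Kdr, Tie1, Tek, Flt1, Cldn5 and Emcn. The windows of Tek and Emcn also run past the first base of the gene. GGAA on either strand occurred 3 times in the window of Robo4 and 4 times in those of Kdr, Flt1 and Emcn. It occurred 7 times in that of Tie1, 2 times in that of Tek and not in that of Cldn5. It is a common word: 93.4% of all 32851 windows of this length hold it, the median window holds it 3 times, and 54.7% hold it at least as often as Robo4. The share with at least as many as Tie1 was 3.82%. The longer CCGGAA, which contains GGAA, occurred 1 time in the Kdr window and in no other of the 7, beside 12% of all windows. GATA, the core bound by Gata2, occurred 1 time each in the windows of Kdr and Tek, beside 53.6% of all windows. A match is a description of the letters and not of binding.

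Kdr, the main signalling receptor for VEGF-A, followed the same order as Robo4 between the mutants without passing the test. Its probe set (1449379_at) read 9.64, 9.86 and 9.64 in the wild type, 9.94, 9.64 and 9.71 in the Ednrb null and 9.54, 9.35 and 9.26 in the NCC null. Every NCC null array lay below every array of the other groups, which overlapped with each other. The NCC null mean was 0.38 below that of the Ednrb null (95% interval of the difference 0.13 to 0.63, limma adjusted p = 0.0955) and -0.33 from the wild type (limma adjusted p = 0.154). The Ednrb null and the wild type differed by 0.050 (interval -0.20 to 0.30, limma adjusted p = 0.879). At the threshold of 0.05, Kdr was called between the mutants when arrays were weighted by their quality (0.47, limma adjusted p = 0.0235) and under no other alternative.

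Flt1, a VEGF receptor that also acts as a decoy for the ligand, gave different pictures at its 4 probe sets. At 1419300_at the levels were 7.78, 8.19 and 7.77 in the wild type, 7.64, 7.26 and 7.50 in the Ednrb null and 7.55, 7.41 and 7.37 in the NCC null. Both mutants lay below the wild type without overlap, by -0.44 (limma adjusted p = 0.0954) and -0.46 (limma adjusted p = 0.0898), and neither passed the threshold. The brightest probe set, 1451756_at, read 7.90, 8.42 and 7.72 in the wild type, 8.12, 7.84 and 8.05 in the Ednrb null and 7.83, 7.76 and 7.82 in the NCC null. Its differences from the wild type were -0.014 and -0.21, with limma adjusted p-values of 0.978 and 0.569. The remaining probe sets, 1440926_at and 1454037_a_at, gave -0.21 and 0.23 for the Ednrb null and -0.093 and 0.047 for the NCC null, none called by limma. Flt1 is known to be made in a membrane-bound and a soluble form. The sources used here do not say which form each probe set reads.

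The Tie receptors showed no called difference. Tek, the angiopoietin receptor (1418788_at), had group means of 8.69 ± 0.13 in the wild type, 8.54 ± 0.09 in the Ednrb null and 8.67 ± 0.26 in the NCC null (SD, n = 3 each), and all 3 groups overlapped. Its differences were -0.15 and -0.019 against the wild type and -0.13 between the mutants (limma adjusted p = 0.610, 0.965 and 0.681). Tie1 (1416238_at) read 8.41 to 9.00 in the wild type, 8.56 to 8.72 in the Ednrb null and 8.31 to 8.56 in the NCC null. The Tie1 difference between the mutants was 0.19 (interval -0.11 to 0.49, limma adjusted p = 0.549), and against the wild type its means were -0.070 and -0.26 away.

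Among the junction genes, Pecam1 and Cdh5 moved in opposite directions in the Ednrb null, both without passing the test. Pecam1, an adhesion molecule that is also found on platelets and leukocytes (1421287_a_at), read 8.00, 8.33 and 8.30 in the wild type. It read 8.58, 8.59 and 8.55 in the Ednrb null and 8.52, 8.36 and 8.23 in the NCC null. All 3 Ednrb null arrays lay above the other 6, and the remaining groups overlapped. The Ednrb null exceeded the wild type by 0.36 (SE 0.11, interval 0.12 to 0.60, limma adjusted p = 0.0954), and the NCC null did by 0.16 (limma adjusted p = 0.528).

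Cdh5, the cadherin of endothelial adherens junctions (1433956_at), read 9.65, 9.99 and 9.88 in the wild type, 9.63, 9.64 and 9.59 in the Ednrb null and 9.84, 9.28 and 9.30 in the NCC null. The Ednrb null lay below the wild type without overlap, its highest array at 9.64 and the lowest wild-type array at 9.65, and the NCC null overlapped both groups. The difference from the wild type was -0.22 for the Ednrb null (limma adjusted p = 0.491) and -0.36 for the NCC null (limma adjusted p = 0.227). Without NCC null array 2, whose level was close to that of the wild type, the NCC null difference was -0.55 and was called (limma adjusted p = 0.0323). The second Cdh5 probe set, 1422047_at, was dim, at 5.21 to 5.84 over the 9 arrays, and its group means differed by 0.087, -0.13 and 0.22 in the 3 comparisons with no call by limma.

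Set against the other 9 genes of the same array, Pecam1 stood at -0.79 to -0.67 in the wild type, -0.45 to -0.32 in the Ednrb null and -0.43 to -0.38 in the NCC null. Cdh5 stood at 1.06 to 1.09, 0.72 to 0.85 and 0.64 to 1.04 in the same order. Relative to the rest of the endothelial genes, Pecam1 was thus higher, and Cdh5 lower, in all 6 mutant arrays than in any wild-type array. In the Ednrb null, Robo4, Pecam1, Cdh5 and Tek were the 4 of 10 genes without overlap with the wild type on this scale, where 12.7% of the other genes on the array had no overlap when set against the mean of all 10. The NCC null had 6 of 10 without overlap with the wild type, where 17.9% of other genes did: Pecam1 higher, and Robo4, Cdh5, Kdr, Tie1 and Esam lower. These relative values were not tested, because each is measured against genes chosen with earlier results known. The shares, and the 28.8% between the mutants, are not a like background. The 10 genes share much of their spread between arrays (median pairwise r of 0.68 after group means were removed). Subtraction takes that spread out of these genes and not out of the others, so the counts are not read as an excess.

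Esam, an adhesion molecule of tight junctions (1460356_at), read 9.29, 9.64 and 9.52 in the wild type, 9.66, 9.48 and 9.58 in the Ednrb null and 9.45, 9.24 and 9.04 in the NCC null. The mutants did not overlap, and both overlapped the wild type. The difference between the mutants was 0.33 (interval 0.06 to 0.60, limma adjusted p = 0.185). Cldn5, the claudin that seals endothelial tight junctions (1417839_at), read 8.16 to 8.84 in the wild type, 8.26 to 8.56 in the Ednrb null and 8.56 to 8.67 in the NCC null. It was one of 3 probe sets with a higher mean in the NCC null than in the Ednrb null, with a difference of -0.17 (limma adjusted p = 0.649). Emcn (1425582_a_at) had means of 9.24 ± 0.26 in the wild type, 9.48 ± 0.12 in the Ednrb null and 9.36 ± 0.19 in the NCC null (SD, n = 3 each), and its differences of 0.24 and 0.12 from the wild type were not called (limma adjusted p = 0.417 and 0.740).

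Much of the spread in these genes lay between arrays of one group and was shared by the genes. With each gene at its brightest probe set, array 1B was the lowest of the 3 wild-type arrays for 9 of 10 genes and array 1C the highest for 7. In the NCC null, array 2 was the highest for 10 of 10 and array 6 the lowest for 7. As a mean over the 10 genes, deviations from the average of all 9 arrays were -0.17, 0.20 and 0.06 in the wild type, 0.14, 0.03 and 0.06 in the Ednrb null and 0.07, -0.14 and -0.24 in the NCC null, in the array order used throughout. The wild-type and NCC null arrays thus covered overlapping ranges, and array 2 was at the level of the Ednrb null arrays. The Ednrb null arrays were the most alike: the median SD over the 14 probe sets was 0.105 there, 0.146 in the NCC null and 0.181 in the wild type.

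Over the 9 arrays, 42 of the 45 pairs of endothelial genes had a Pearson r above 0, with a median of 0.41. The highest were 0.91 for Kdr with Esam and for Robo4 with Esam, and the lowest was -0.23. After the group means were removed, 43 of 45 pairs were above 0 with a median of 0.68. Esam followed the mean of the other 9 genes most closely (r = 0.95), then Tie1 (0.89), Kdr (0.78) and Robo4 (0.74), and Cldn5 did so least (0.28). These correlations are descriptions over arrays that share 1 normalization and carry no test.

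The 10 other genes whose levels followed the mean of the endothelial genes most closely, among 9087 with a mean intensity above the median gene, were Sox7, Mast2, Ado, Mest, Smtn, Phf23, Pole, Rapgef1, Arhgap11a and Dyrk1a. Their r over the 9 arrays ran from 0.94 for Sox7, an endothelial transcription factor, to 0.91. For whole lists, the median r with this mean was 0.59 for 25 other pan-endothelial genes (21 of 25 above 0), 0.54 for 10 arterial and 0.55 for 4 venous genes. It was 0.00 for 10 pericyte genes and -0.52 for 12 macrophage genes, 1 of 12 above 0. The median was 0.19 over the 9087 other genes above the median level, a filter that was not applied to the lists.

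**Figure D3:**
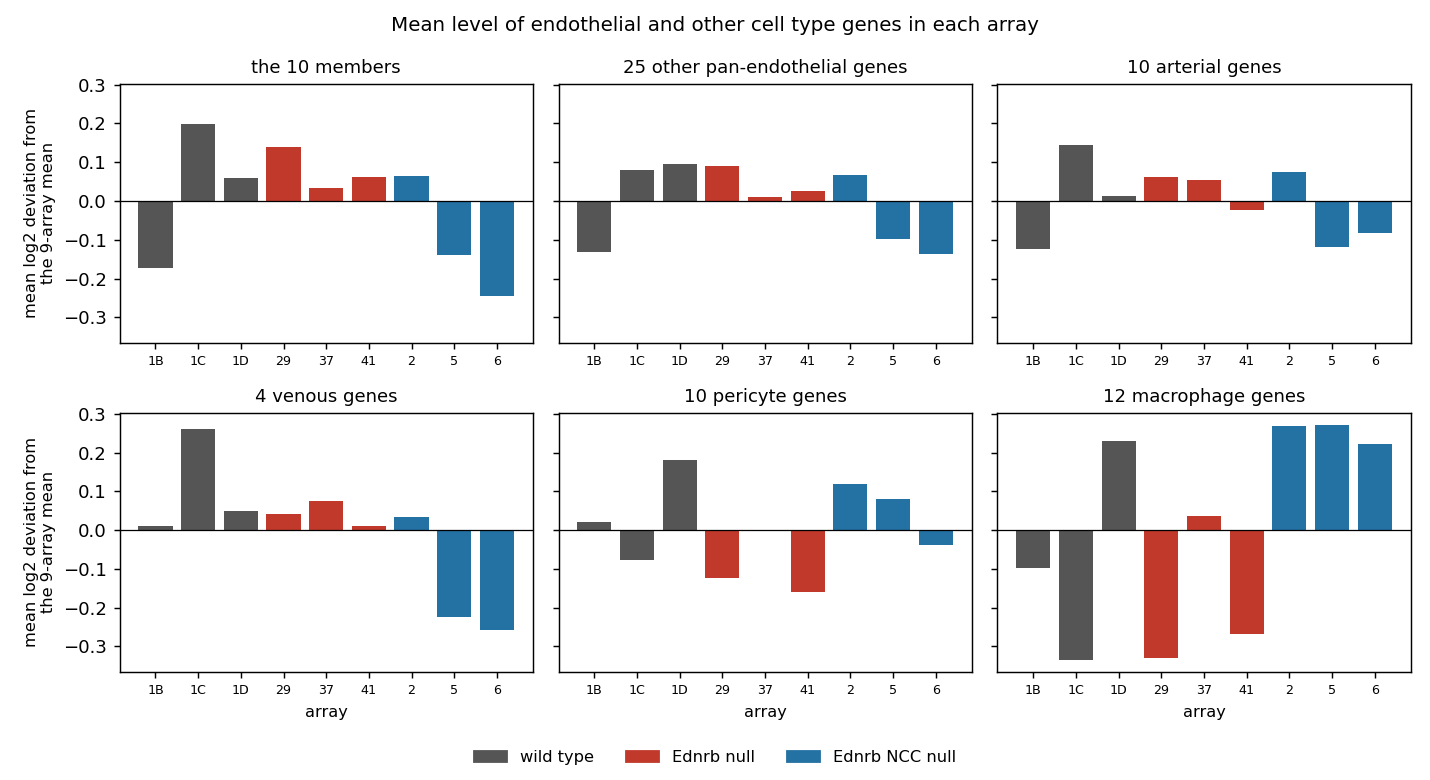
Mean log2 deviation from the average of the 9 arrays (vertical axis) for the 10 endothelial genes and 5 other lists, 1 bar per array, coloured by group. Arrays 1B, 5 and 6 are low, and array 1C is high, for the endothelial genes, at -0.17, -0.14, -0.24 and 0.20. Macrophage genes are above their average in all 3 NCC null arrays.

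Among the ligands of these receptors, Angpt1 and Vegfc passed the test in the Ednrb null. Of 13 ligands, co-receptors and partners, 1 rose (Vegfc) and 1 fell (Angpt1) in the Ednrb null against the wild type, with a median of -0.0033 over the 13. Here 4.79% of all genes, each at its brightest probe set, were called. In the NCC null none of the 13 was called by limma, beside 3.90% of all genes, and the median was -0.13. The remaining 11 genes were not called by limma in any comparison at their brightest probe set.

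Angpt1, the activating ligand of Tek, usually made by cells around the vessel (1439066_at), read 8.55, 8.77 and 8.64 in the wild type. It read 7.97, 8.08 and 7.97 in the Ednrb null and 8.74, 8.75 and 8.55 in the NCC null. The Ednrb null lay below both other groups without overlap, while those overlapped. Angpt1 was 1.57-fold lower in the Ednrb null than in the wild type (log2 difference -0.65, SE 0.09, limma adjusted p = 0.00225) and 1.60-fold lower than in the NCC null (-0.68, limma adjusted p = 0.00324). The NCC null differed from the wild type by 0.029 (interval -0.18 to 0.24, limma adjusted p = 0.924). The fall against the wild type was called in all 18 alternatives, and the one against the NCC null was lost only with the Actb ratio as a covariate (-0.79, limma adjusted p = 0.0617). A dim second probe set, 1421441_at, differed by -0.086 and 0.030 in these comparisons. Tek, its receptor, showed no call, and Angpt2, its context-dependent antagonist (1448831_at), was -0.30 and -0.33 from the wild type in the Ednrb null and NCC null (limma adjusted p = 0.171 and 0.139).

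Vegfc, a ligand of the lymphatic receptor Flt4 and, after processing, of Kdr (1440739_at), read 8.88, 9.21 and 8.85 in the wild type, 9.80, 9.71 and 9.50 in the Ednrb null and 9.32, 8.86 and 9.04 in the NCC null. All Ednrb null arrays lay above the other 6. Vegfc was 1.62-fold higher than in the wild type (log2 difference 0.69, SE 0.14, limma adjusted p = 0.0157) and 1.51-fold higher than in the NCC null (0.59, limma adjusted p = 0.0385). A second probe set, 1419417_at, gave 0.60 against the wild type (limma adjusted p = 0.0157), and the remaining one, 1439766_x_at, gave -0.16. The call against the wild type was lost without Ednrb null array 29 or 37 (limma adjusted p = 0.0738 and 0.0620), without wild-type array 1B or 1D (limma adjusted p = 0.0724 and 0.0565), and once the Actb ratio was a covariate (0.83, limma adjusted p = 0.148). The call against the NCC null was lost in 7 of 18 alternatives, without any 1 of the Ednrb null arrays, NCC null arrays 5 and 6 or wild-type array 1B, and with the Actb ratio, over which the difference stayed between 0.49 and 0.75. Vegfa (1420909_at), the main ligand of Kdr and Flt1, differed by 0.065 in the Ednrb null and -0.22 in the NCC null (limma adjusted p = 0.833 and 0.353).

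Nrp1, a co-receptor for VEGF-A, and the Robo4 binding partner Unc5b were not called at their brightest probe sets. Their differences were -0.0033 and -0.057 in the Ednrb null. Slit2, a ligand of the Robo family, was 0.41 above the wild type in the NCC null (limma adjusted p = 0.114) and 0.078 above it in the Ednrb null. For these genes the probe sets disagreed. In the Ednrb null, dimmer ones fell by 0.73 for Nrp1 (1457198_at, limma adjusted p = 0.0140), by 0.82 for Slit2 (1458140_at, limma adjusted p = 0.00130) and by 0.71 for Unc5b (1453269_at, limma adjusted p = 0.00668).

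**Figure D4:**
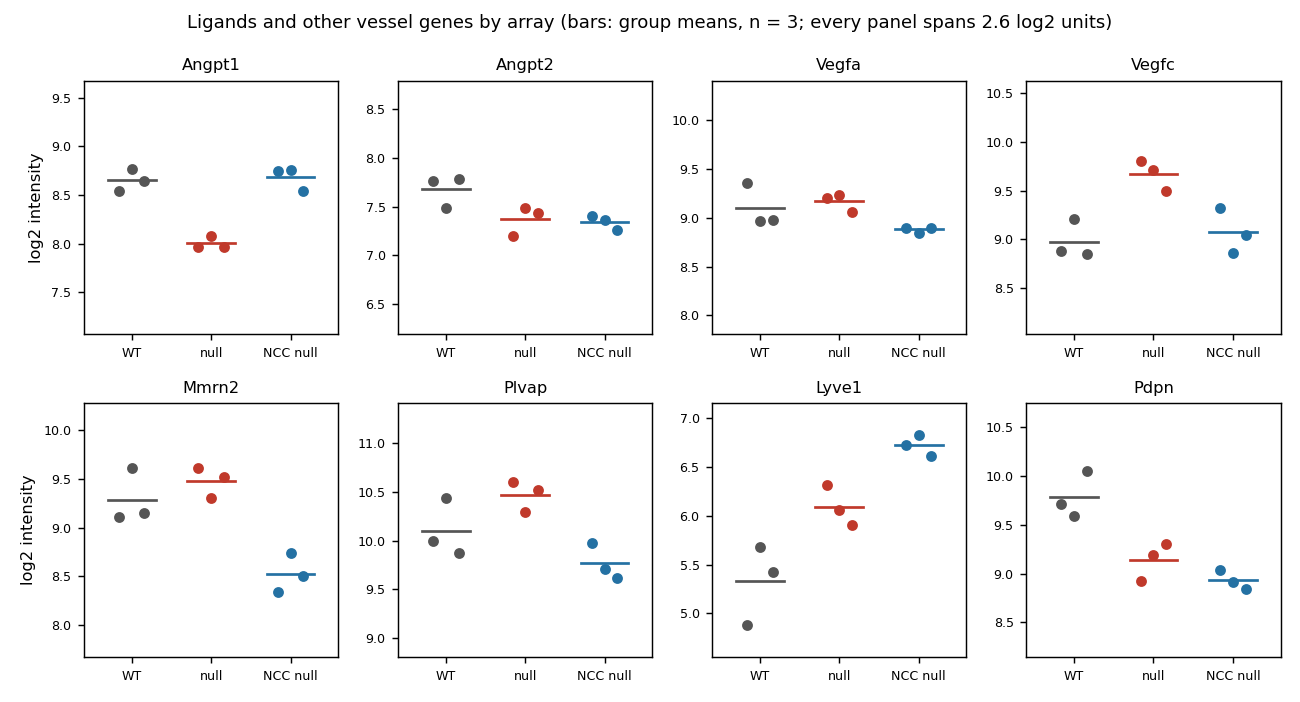
Log2 intensity (vertical axis, 2.6 log2 units in every panel) of 4 ligands, 2 other pan-endothelial genes and 2 lymphatic genes in every array. Points are arrays and bars are group means (n = 3). Angpt1 is low and Vegfc high in the Ednrb null, Mmrn2 is low in the NCC null, Lyve1 is high in both mutants, highest in the NCC null, and Pdpn is low in both.

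Among 25 other pan-endothelial genes, the mutants differed in 3: Mmrn2 and Plvap were higher, and Tm4sf1 lower, in the Ednrb null than in the NCC null, where 5.29% of all genes were called. The list's median between the mutants was 0.15, beside 0.0092 over all genes, and 17 of 25 differences were above 0. Mmrn2, an extracellular matrix protein of the vessel wall (1456768_a_at), read 9.11, 9.61 and 9.15 in the wild type, 9.61, 9.30 and 9.52 in the Ednrb null and 8.34, 8.74 and 8.50 in the NCC null. Every NCC null array lay below the other 6. Mmrn2 was 1.93-fold higher in the Ednrb null than in the NCC null (log2 difference 0.95, SE 0.15, limma adjusted p = 0.00600), a call lost only with the Actb ratio as a covariate (0.60, limma adjusted p = 0.325). It fell in the NCC null against the wild type (-0.76, limma adjusted p = 0.0207), a call lost without NCC null array 2 or 6 (limma adjusted p = 0.0690 and 0.0800) and in a fit of those 2 groups alone (limma adjusted p = 0.0526). Its 3 other probe sets gave 0.32 to 0.54 between the mutants, none called by limma.

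Plvap, the protein of endothelial fenestral diaphragms (1418090_at), was 1.63-fold higher in the Ednrb null than in the NCC null (log2 difference 0.70, SE 0.15, limma adjusted p = 0.0275), with 10.29 to 10.60 against 9.61 to 9.98. This call was lost without Ednrb null array 29 or 41, without NCC null array 5 or 6 (limma adjusted p = 0.0901 to 0.120), and once the Actb ratio was a covariate (limma adjusted p = 0.264). Tm4sf1 (1450958_at) was -1.38 in that comparison (limma adjusted p = 0.0101), a call lost without NCC null array 5 (limma adjusted p = 0.0527) and with the Actb covariate (limma adjusted p = 0.294). Against the wild type it fell by 1.04 in the Ednrb null (limma adjusted p = 0.0341), called in 9 of 18 alternatives and lost without Ednrb null array 29 or 37, any 1 NCC null array or wild-type array 1B or 1D (limma adjusted p = 0.0531 to 0.120), in a fit of those 2 groups (limma adjusted p = 0.0979) and with the Actb covariate (limma adjusted p = 0.507). The other Tm4sf1 probe sets, 1439925_at and 1448069_at, are not described here. Tm4sf1 is also known from epithelial and mesenchymal cells. Of 10 arterial and 4 venous genes, none was called by limma in any comparison. Medians between the mutants were 0.10 and 0.14.

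Of 6 measured lymphatic genes, Lyve1 rose and Pdpn fell in both mutants against the wild type. Lyve1, a hyaluronan receptor that macrophages also carry, read 4.88, 5.68 and 5.42 in the wild type, 6.32, 6.06 and 5.90 in the Ednrb null and 6.73, 6.83 and 6.61 in the NCC null. The 3 groups did not overlap, and the differences from the wild type were 0.77 (limma adjusted p = 0.0341, called in 8 of 17 alternatives) and 1.40 (limma adjusted p = 0.00200, called in all 17). The first was lost without Ednrb null array 29 or 37, any 1 NCC null array or wild-type array 1B or 1D (limma adjusted p = 0.0505 to 0.137), in a fit of those 2 groups (limma adjusted p = 0.0925) and with the Actb covariate, where the difference was 0.43 (limma adjusted p = 0.673). All wild-type levels of Lyve1, and those of Ednrb null arrays 37 and 41, lay under 6.14, the level below which 40% of probe sets lie. A second Lyve1 probe set, 1453128_at, is not described here. Pdpn, a mucin-like glycoprotein of lymphatic endothelium, mesothelium and stroma, read 9.71, 9.59 and 10.05, then 8.92, 9.19 and 9.31, then 9.04, 8.91 and 8.84 in the same group order. It fell by 0.64 in the Ednrb null (limma adjusted p = 0.0195, called in 12 of 18 alternatives) and by 0.85 in the NCC null (limma adjusted p = 0.00642, called in all 18). The first was lost without Ednrb null array 29 or 37 or wild-type array 1B or 1D (limma adjusted p = 0.0516 to 0.0849), in a fit of those 2 groups (limma adjusted p = 0.0572) and with the Actb covariate (-0.59, limma adjusted p = 0.381).

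Genes of other cells in the tissue also differed between the groups. Their counts are read against the share of all genes called, 4.79% for the Ednrb null and 3.90% for the NCC null against the wild type, and 5.29% between the mutants. Of 12 macrophage genes, Cd14 and Mrc1 rose in the NCC null against the wild type, and Cd14 and C1qb were lower in the Ednrb null than in the NCC null. The summed intensity of the 12 genes was 3434 to 5382 in the wild type, 3464 to 4435 in the Ednrb null and 5155 to 5523 in the NCC null. The list's median was 0.32 in the NCC null against the wild type and -0.49 between the mutants. Each of these calls was lost without some single arrays. Mrc1 was lost without any 1 NCC null array or wild-type array 1B or 1C (limma adjusted p = 0.0522 to 0.0858). Cd14 was lost against the wild type without NCC null array 5 or 6, wild-type array 1B or 1C, or in a fit of 2 groups (limma adjusted p = 0.0540 to 0.0907), and between the mutants without Ednrb null array 29 or 41 or NCC null array 5 or 6 (limma adjusted p = 0.0735 to 0.0830). C1qb was lost without Ednrb null array 29 or 41, any 1 NCC null array or wild-type array 1B (limma adjusted p = 0.0691 to 0.185) and with the Actb covariate (limma adjusted p = 0.424).

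Mesothelial genes, of the sheet that covers the gut, had the largest median differences from the wild type among the 12 lists examined, in both mutants. Over 8 genes the median was 0.94 in the NCC null, with 8 of 8 above 0, and 0.62 in the Ednrb null, with 7 of 8 above 0. Their summed intensity was 6362 to 8114 in the wild type, 7320 to 9626 in the Ednrb null and 10565 to 11855 in the NCC null. Krt19, at log2 means of 12.39, 12.31 and 12.85 in the same order, makes up much of these sums. Which cells of the tissue made Krt19 was not tested. Wild-type array 1B, the lowest wild-type array for most endothelial genes, stood at -1.61 from the 9-array average of the mesothelial genes, while 1C and 1D stood at 0.0083 and -0.21. Single calls were few: Msln rose in the NCC null, and Krt19 was lower in the Ednrb null than in the NCC null. Msln was lost without any 1 NCC null array or wild-type array 1B or 1D (limma adjusted p = 0.0513 to 0.119). Krt19 was lost without Ednrb null array 29 or 41, any 1 NCC null array or wild-type array 1B (limma adjusted p = 0.0596 to 0.144), in a fit of 2 groups (limma adjusted p = 0.0565) and with the Actb covariate (limma adjusted p = 0.319).

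Of 7 measured platelet genes, Pf4 rose in the NCC null against the wild type in all 18 alternatives. It was lower in the Ednrb null than in the NCC null (log2 difference -0.81, limma adjusted p = 0.00821), called in 17 of 18. Platelet sums were 815 to 964 in the wild type, 880 to 943 in the Ednrb null and 1117 to 1295 in the NCC null. Pf4, at log2 means of 7.97, 8.25 and 9.06 in the same order, weighs on these sums. The median difference of the 7 genes in the NCC null from the wild type was 0.091, beside 0.024 over all genes, with 7 of 7 above 0. Of 10 pericyte genes, Kcnj8 fell in the Ednrb null, with list sums of 12134 to 13454, 9402 to 11698 and 10950 to 13854 in the same order. Against the NCC null the Kcnj8 difference was -0.88 (limma adjusted p = 0.0103), called in 17 of 18 alternatives. The Kcnj8 call against the wild type was lost in 8 of 18 alternatives: without Ednrb null array 29 or 41, NCC null array 5 or 6 or wild-type array 1B or 1D (limma adjusted p = 0.0606 to 0.142), in a fit of 2 groups (limma adjusted p = 0.0898) and with the Actb covariate (limma adjusted p = 0.573). Of 10 measured red blood cell genes, 2 rose in each mutant against the wild type, and the pairs differed. They were Hbb-bh1 and Hba-x in the Ednrb null, and Hbb-bh1 and Tfrc in the NCC null, where Hba-x was -0.35 from the wild type. Tfrc, at its brightest probe set, was called there in 12 of 18 alternatives. List sums were 21115 to 27037, 29231 to 32314 and 24974 to 27286 in the same group order. Of 7 measured enteric neural crest genes, 4 fell in the Ednrb null and 2 in the NCC null. The part of these cells, and of the lower Actb ratio in the Ednrb null, in the endothelial differences was not tested.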

How the data were processed

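RNA of 9 terminal colon samples (150 ng total RNA each, TRIzol and RNeasy, per the labels' protocols) was labelled and hybridised to 1-colour mouse arrays. The deposited values are intensity values summarised by the authors with RMA, per the submitters' processing notes (version not given in the sources used here). They lie on a linear scale from 5.69 to 61637 and were converted here to log2 of the deposited intensity, with no further scaling. A fit with limma 3.58.1 (R 4.3.3, lmFit and eBayes, a mean per group, all 9 arrays) covered 45037 probe sets, with Benjamini-Hochberg adjustment over them. It was tested on simulated data. Intervals are 95% intervals. The number of arrays limits the precision, and no detection calls were used.

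Genes were named through the platform annotation. Besides the 10 endothelial genes, up to 4 genes with the smallest p were eligible to be named from each of 11 other lists of vessel, blood and gut cell genes, at their brightest probe set, plus the ligands and partners of the receptors. Of 129 listed genes, 122 were measured. The genes and lists were chosen with earlier results of these data known. Alternatives were 2 scalings, a filter on the dimmest 40%, fits of 2 groups, other eBayes settings, array weights, brightest probe sets, a threshold of 0.10, the Actb ratio as a covariate and leaving out each array.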

Additional observations from a re-analysis of the deposited data

How the results depend on the processing

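The 42 differences of the 14 endothelial probe sets were recomputed under 18 alternatives. Of 738 values, 709 kept direction and side of the threshold, 19 turned sign, 4 lost a call and 6 gained one. The threshold of 0.10 reads the main fit again, so there a call could be gained but not lost, and no sign could turn. Without it, 696 values remain. The median differences moved by less than the SD between arrays of 0.150, with ranges of -0.085 to 0.13 for the Ednrb null and -0.29 to -0.043 for the NCC null against the wild type, and 0.10 to 0.26 between the mutants. The count of called probe sets between the mutants was 2 with array weights, 2 at an adjusted p under 0.10, 0 with the Actb ratio as a covariate and 0 to 1 without single arrays. Against the wild type it was 2 for the Ednrb null and 1 for the NCC null at an adjusted p under 0.10, and 0 to 1 for the NCC null without single arrays.

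Signs turned for differences near 0. With the Actb ratio as a covariate, Cdh5 (1422047_at) was -0.073 between the mutants and -0.18 in the Ednrb null against the wild type. Without single arrays, differences from the wild type in the Ednrb null ran from -0.0995 to 0.19 for Cdh5 (1422047_at), -0.26 to 0.086 for Cldn5, -0.00096 to 0.17 for Esam, -0.16 to 0.19 for Flt1 (1451756_at), -0.039 to 0.12 for Kdr and -0.21 to 0.082 for Tie1. In the NCC null they ran from -0.32 to 0.019 for Cdh5 (1422047_at), -0.084 to 0.26 for Cldn5, -0.0084 to 0.25 for Emcn, -0.048 to 0.12 for Flt1 (1454037_a_at) and -0.13 to 0.12 for Tek. Between the mutants Flt1 (1419300_at) ran from -0.065 to 0.12. Causes were not tested. No paired analysis was possible because the groups share no replicate labels.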

Other observations

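Of the embryonic globin genes, each at its brightest probe set, Hbb-bh1 was called in all 3 comparisons and Hba-x in 2. The other Hbb-bh1 probe sets, 1437810_a_at and 1437990_x_at, are not described here. Hbb-bh1 was 2.15 above the wild type in the Ednrb null (log2, limma adjusted p = 1.2e-05) and 1.02 above it in the NCC null (limma adjusted p = 0.00369), a gap of 1.13 between the mutants (limma adjusted p = 0.00211) that was not called with the Actb ratio as a covariate (0.83, limma adjusted p = 0.156). Hba-x was 0.79 above the wild type in the Ednrb null (limma adjusted p = 0.0118) and -0.35 from it in the NCC null (limma adjusted p = 0.264). The Hba-x call against the wild type was lost without Ednrb null array 37 (limma adjusted p = 0.0533), without wild-type array 1B (limma adjusted p = 0.0507) and with the Actb covariate (limma adjusted p = 0.104). These genes are made by primitive red blood cells, which travel in the vessels that these endothelial genes mark.

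In the deposited intensities, 43.3% of the 45037 probe sets, and 3 of the 14 endothelial ones, held exactly the same value in 2 or more arrays. Kdr was listed at 795.94 in wild-type arrays 1B and 1D and in Ednrb null array 37.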
